A study of Mus musculus with 14 samples.

Results

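Endothelial identity genes are the genes by which a blood or lymph vessel lining cell is told from the other cells of a tissue, and 38 of them were followed here in whole mouse kidneys. They were chosen by name, as pan-endothelial and kidney endothelial markers and transcription factors, and all 38 were found among the 23286 genes of the deposited tables. By role they comprise 4 junction genes, 10 genes of surface and matrix glycoproteins, 8 transcription factors, 9 receptors and signalling genes and 7 genes of intracellular and other products. All 38 passed the filter on low values in each of the 5 comparisons made.

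RNA from whole kidneys of 9-week-old mice was sequenced in bulk 5 h after surgery, with 3 libraries in each of 4 groups. The groups were VE-PTPiKO mice after ischemia-reperfusion (IR) injury, in which the blood supply of the kidney is stopped and then restored, VE-PTPiKO mice after sham surgery, Control mice after IR, and Control mice after sham surgery. VE-PTPiKO names a genotype that targets VE-PTP, an endothelial phosphatase encoded by Ptprb. Another 2 single-cell samples of 12-month-old C57BL/6 mice, taken 24 h after IR, were not analysed here. The alleles, the cells in which Ptprb is targeted, any inducing agent and what the Control mice carry are not given in the sources used here. Nor do the labels say that libraries came from separate mice, so all p-values measure the spread between these libraries, which may be technical.

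Endothelial cells hold their identity through ETS factors such as ERG and FLI1, SOXF factors and GATA2, which bind enhancers and promoters of vessel genes and of one another. The genes they keep active build the adherens and tight junctions that seal the vessel wall, the glycoproteins that face the blood, and the receptors that read flow and secreted signals. In the kidney, endothelium ranges from the fenestrated glomerular capillaries to the peritubular capillaries around the tubules and the vasa recta of the medulla. VE-PTP acts at this site: it binds VE-cadherin, the product of Cdh5, and removes phosphate from the receptor Tie2.

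Levels are given as scaled reads, meaning the whole reads of a library divided by 1 factor that makes the 12 libraries comparable, or, between genes, as reads per kilobase of exon at equal library size (RPKM). Sums over a list are in CPM, the reads of its genes at equal library size. Fold changes of IR over sham come from the deposited values, whose scaling differs slightly from that of the scaled reads. Libraries held 15427887 to 21296392 reads in genes. Malat1, a nuclear RNA, took 1.02%, 1.15% and 1.96% of reads in Control sham replicate 2, VE-PTPiKO sham replicate 2 and VE-PTPiKO IR replicate 3, and 0.327% to 0.564% in the other 9 libraries, so the counts of called genes and the fold changes of Ptprb and 22 of the 38 genes were also computed without these 3. Kidney markers were present in every library: the 6 proximal tubule genes, Slc34a1 and Lrp2 among them, summed to 11750 to 18930 CPM. The 38 endothelial genes summed to 1865, 1969 and 2110 CPM in VE-PTPiKO IR and 1816, 1852 and 1876 in VE-PTPiKO sham, and to 1722, 1945 and 2065 in Control IR and 1709, 1770 and 1626 in Control sham. In bulk RNA, fewer endothelial cells and less RNA per endothelial cell cannot be told apart. Nor does bulk RNA tell which cells of the kidney the reads of a gene came from.

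The targeted gene, Ptprb, had 1314, 1677 and 2114 scaled reads in VE-PTPiKO IR libraries, against 2040, 2156 and 2721 in Control IR libraries. In sham libraries it had 2068, 2852 and 3049 in VE-PTPiKO, against 3061, 4363 and 3269 in Control. The groups overlapped after IR and did not overlap in sham, and neither contrast passed the test (log2 fold change -0.45 ± 0.20 after IR and -0.43 ± 0.20 in sham, SE; limma adjusted p = 1 in both). Reads of this gene remained in every VE-PTPiKO library, and whether the reads cover the targeted part is not given.

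RefSeq promoter windows (build GRCm38.p6) were held for 22 of the 38 genes, 31 windows in all, and 4 are shown. Ehd4 and Rasip1 are shown because they rose after IR in Control kidneys. Notch4, which had the lowest estimate of the 38 after IR in VE-PTPiKO kidneys, and Emcn stand beside them. Neither passed the limma test on all libraries without a replicate block in any comparison. Notch4 did pass in some of the alternatives given below, and both of the authors' deposited tables call it lower after IR. Each run is the 250 bases upstream of the annotated start, 5′ to 3′ on the strand of the gene, and capitals mark the ETS word AGGAAG or its reverse complement CTTCCT (the second ETS word searched, CCGGAA, is in none of the 4). The windows lie at chr2:120154576-120154825, minus strand, for Ehd4, at chr7:45627287-45627536, plus strand, for Rasip1, at chr17:34564045-34564294, plus strand, for Notch4, and at chr3:137340828-137341077, plus strand, for Emcn.
Ehd4: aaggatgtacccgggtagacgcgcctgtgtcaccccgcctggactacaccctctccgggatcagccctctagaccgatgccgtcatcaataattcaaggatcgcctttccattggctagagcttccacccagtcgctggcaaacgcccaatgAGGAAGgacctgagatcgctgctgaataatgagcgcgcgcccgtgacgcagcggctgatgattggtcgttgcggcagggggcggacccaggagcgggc
Rasip1: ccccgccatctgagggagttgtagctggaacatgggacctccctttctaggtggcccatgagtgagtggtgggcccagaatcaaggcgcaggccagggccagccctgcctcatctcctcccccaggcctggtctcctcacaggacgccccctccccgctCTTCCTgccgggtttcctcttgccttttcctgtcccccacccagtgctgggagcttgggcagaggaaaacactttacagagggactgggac
Notch4: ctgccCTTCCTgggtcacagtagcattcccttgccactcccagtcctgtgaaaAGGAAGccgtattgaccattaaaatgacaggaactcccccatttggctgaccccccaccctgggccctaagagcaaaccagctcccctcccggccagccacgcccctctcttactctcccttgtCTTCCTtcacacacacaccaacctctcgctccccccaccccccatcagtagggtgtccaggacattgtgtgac
Emcn: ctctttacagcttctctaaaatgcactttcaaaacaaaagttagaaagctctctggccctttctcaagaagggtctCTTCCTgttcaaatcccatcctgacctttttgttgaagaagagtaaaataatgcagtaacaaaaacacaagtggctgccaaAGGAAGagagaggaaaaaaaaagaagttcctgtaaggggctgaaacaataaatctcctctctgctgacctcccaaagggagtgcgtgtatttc

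AGGAAG, searched on both strands, was present in 16 of the 31 windows of these genes (51.6%), beside 29.5% of all 32851 RefSeq promoter windows of the same length. A second ETS word, CCGGAA, which shares the GGAA core, was in 6.45% of the windows of these genes and 12% of all windows. The SOX word ACAAT was in 25.8%, beside 27.7% of all windows, and the GATA word AGATAA in 9.68%, beside 9.99%. These are counts of letters and were not tested: several genes have more than 1 window, and a match is not a bound site. The set of all windows was not filtered by chromosome, unlike the windows of these genes. In the windows shown, AGGAAG occurs once upstream of Ehd4 and once upstream of Rasip1, 3 times upstream of Notch4 and 2 times upstream of Emcn. Every window shown thus holds it, while 16 of the 31 do. Windows without it, such as those of Cldn5 and Dll4, are not shown.

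Among the 38 genes, Plvap, which builds the diaphragms of capillary fenestrae, was the most abundant per exon length in all 4 groups, at 90.7 RPKM in Control IR and 108.2 RPKM in Control sham, and 106.2 RPKM in VE-PTPiKO IR and 117.5 RPKM in VE-PTPiKO sham (means, n = 3). In Control sham it was followed by Ly6c1, a surface protein held by a lipid anchor, at 39.6 ± 10.1 RPKM, Eng at 28.7 ± 5.88, Egfl7 at 22.7 ± 3.65, Adgrf5 at 22.1 ± 3.22 and Emcn at 20.4 ± 1.89 (SD). The libraries of Plvap stood apart from those of Ly6c1 in every group. Further down, neighbours in the order mostly did not differ beyond their spread: the libraries overlapped in 33 of 37 neighbouring pairs in Control IR, 33 in Control sham, 30 in VE-PTPiKO IR and 29 in VE-PTPiKO sham.

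The transcription factors stood low in this order, and the lowest 3 genes in Control sham were Sox7 at 1.11 ± 0.21 RPKM, Myct1 at 1.08 ± 0.28 and Tal1 at 0.728 ± 0.246 (SD, n = 3). The highest of each role in Control sham were Esam among junction genes, Plvap among glycoproteins, Fli1 among transcription factors at 5.59 ± 1.11 RPKM, Eng among receptors, and Ehd4 at 16.9 ± 1.68 RPKM among the rest. Ehd4 stood 11th of 38 in Control sham and the third in Control IR, at 36.9 RPKM. Ly6c1 has a near-identical neighbour, Ly6c2, so reads could be split between them and its level is uncertain.

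**Figure D1:**
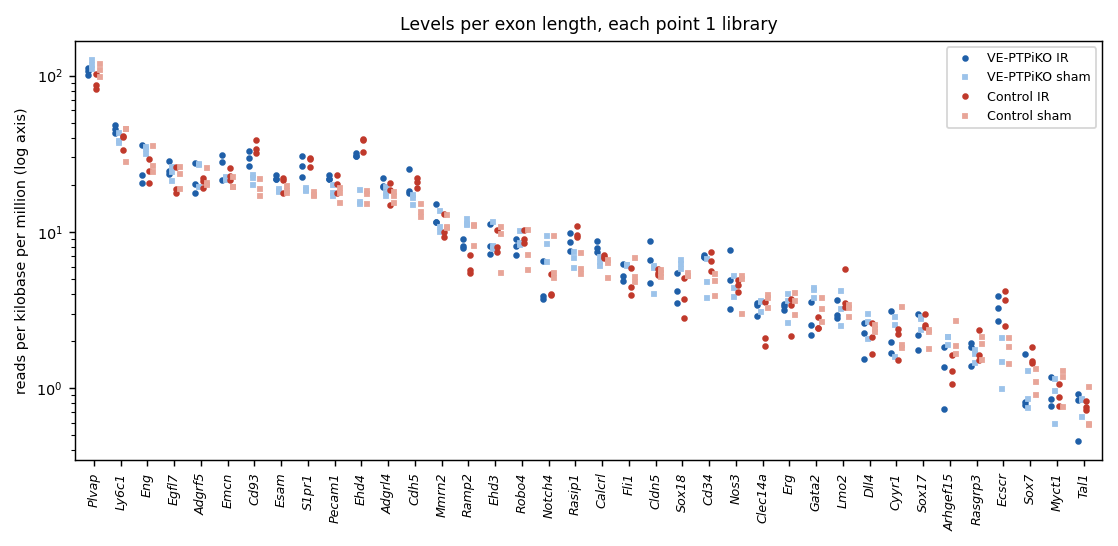
Levels of the 38 endothelial identity genes in RPKM on a log axis, each point 1 library, IR libraries as circles and sham libraries as squares, ordered by the mean in Control sham. Plvap stands above the other genes in all 12 libraries, and Cd93 and Ehd4 lie higher in IR than in sham libraries.

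In Control kidneys, IR changed 7 of the 38 genes: 6 rose and 1 fell. Ehd4 rose 2.13-fold, Ecscr 1.86-fold, Cd93 1.79-fold, S1pr1 1.59-fold, Rasip1 1.58-fold and Cdh5 1.49-fold, and Ramp2 fell, to a level 1.67-fold lower. The other 31 genes, among them all 8 transcription factors, did not pass the test, which was limma on log2(value + 1) of the deposited values with Benjamini-Hochberg adjustment over 16257 genes. The background over all genes tested was 7.48% rising and 4.02% falling, so 6 risen genes of 38 (15.8%) and 1 fallen (2.63%) are read against these shares. The median log2 fold change was -0.0036 over the 38 genes and -0.013 over all genes tested, and 19 of the 38 estimates were above 0 and 19 below. In mm10 the called genes lie at chr2:120089487-120154575 (Ehd4), chr18:35713089-35721491 (Ecscr), chr2:148436651-148443535 (Cd93), chr3:115710433-115715055 (S1pr1), chr7:45627537-45639092 (Rasip1), chr8:104101625-104144502 (Cdh5) and chr11:101246334-101248250 (Ramp2).

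Of the 4 junction genes, 1 rose. Cdh5 encodes VE-cadherin, the adhesion molecule of endothelial adherens junctions. Cdh5 had 1471, 1657 and 1510 scaled reads in Control IR libraries, against 1026, 1127 and 968 in Control sham libraries. The lowest IR library lay above the highest sham library (log2 fold change 0.575 ± 0.11, SE; limma adjusted p = 0.00562). Without Control IR replicate 2 its adjusted p was 0.0534, over a range of 0.000249 to 0.0534 across 16 alternatives.

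The other junction genes had smaller estimates. Esam had 924, 1117 and 1046 scaled reads in Control IR libraries, against 946.5, 898 and 1035 in Control sham libraries, and its groups overlapped; it encodes an immunoglobulin-type adhesion molecule of tight junctions. Cldn5 had 149.5, 137 and 129 scaled reads in Control IR libraries, against 133, 138 and 149 in Control sham libraries. The log2 fold change of Cldn5, the main claudin of endothelial tight junctions, was -0.014 ± 0.16 (limma adjusted p = 0.975), that of Esam 0.10 ± 0.115 (0.664), and that of Pecam1, the adhesion molecule CD31, 0.19 ± 0.13 (0.407). Cdh5 was thus the only junction gene called in Control kidneys.

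Of the 10 surface and matrix glycoproteins, 2 rose and none fell. Cd93 is a C-type lectin-like receptor that binds the matrix protein MMRN2. Cd93 had 4124, 4528 and 3671 scaled reads in Control IR libraries, against 2068, 2555 and 2289 in Control sham libraries. All 3 IR libraries stood above all 3 sham libraries by a wide gap (log2 fold change 0.84 ± 0.12, SE; limma adjusted p = 0.00112), and the call held in 16 of 16 alternatives. The binding partner Mmrn2 had a log2 fold change of -0.13 ± 0.14 (limma adjusted p = 0.646).

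Ecscr encodes a small endothelial membrane protein that acts on cell movement and survival. Ecscr had 74.8, 107 and 117 scaled reads in Control IR libraries, against 42.7, 53.3 and 62.8 in Control sham libraries. The groups did not overlap, at low read numbers (log2 fold change 0.89 ± 0.25, SE; limma adjusted p = 0.0397). This call held in 9 of 16 alternatives. It was lost without Control IR replicate 2 (limma adjusted p = 0.173), Control IR replicate 3 (0.151), Control sham replicate 1 (0.109) or Control sham replicate 2 (0.0608). The last is also the fit without the libraries highest in Malat1. It was lost too with no filter (0.0544) and in 1 fit of all 12 libraries (0.0715), and the adjusted p ranged from 0.0135 to 0.173.

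A further 3 glycoproteins had an unadjusted p under 0.05 without passing the adjusted threshold. Clec14a had 154, 169.8 and 279 scaled reads in Control IR libraries, against 328, 262 and 316 in Control sham libraries. Clec14a, a lectin-like relative of CD93, overlapped between groups through Control IR replicate 3 (log2 fold change -0.63 ± 0.22; limma adjusted p = 0.0941), and without that library its adjusted p was 0.0141, over a range of 0.0141 to 0.312 across alternatives. Plvap had 2971, 3074 and 3516 scaled reads in Control IR libraries, against 4297, 3436 and 3974 in Control sham libraries (log2 fold change -0.29 ± 0.12; limma adjusted p = 0.159), and without Control sham replicate 2, 1 of the 3 libraries highest in Malat1, its adjusted p was 0.0453, over a range of 0.0453 to 0.421. Cd34 had 744, 848 and 930.2 scaled reads in Control IR libraries, against 642, 503 and 718 in Control sham libraries (log2 fold change 0.45 ± 0.15; adjusted p = 0.081). The groups of Cd34, a sialomucin also found on blood progenitors, did not overlap, while those of Plvap did.

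The other glycoproteins had estimates between -0.16 for Egfl7 and 0.28 for Robo4 on the log2 scale, none past the threshold. Egfl7 had 982.5, 902 and 1274 scaled reads in Control IR libraries, against 1228, 1314 and 987 in Control sham libraries. Robo4 had 656, 668.5 and 745 scaled reads in Control IR libraries, against 544, 765 and 444 in Control sham libraries. Both overlapped between groups. Control sham replicate 2, the highest sham library for Robo4 at 765 scaled reads, is 1 of the 3 libraries highest in Malat1, and without it the adjusted p of Robo4 was 0.0338, over a range of 0.0338 to 0.792 across alternatives. Egfl7 encodes a secreted matrix factor and Robo4 a guidance receptor of vessels. Gm20532 overlaps 9.23% of the exon length of Egfl7 on the same strand, so its reads are uncertain.

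None of the 8 transcription factors passed the test in Control kidneys, and their log2 fold changes ran from -0.52 for Sox18 to 0.49 for Sox7. The 3 SOXF genes, whose products act together in vessel growth and artery formation, had estimates on both sides of 0. Sox7 had 88.6, 107 and 81.3 scaled reads in Control IR libraries, against 54.0, 76.9 and 66.0 in Control sham libraries. Sox17 had 216, 216 and 245 scaled reads in Control IR libraries, against 200.1, 200.1 and 156.5 in Control sham libraries. Sox18 had 83.3, 107 and 142 scaled reads in Control IR libraries, against 155, 149 and 162 in Control sham libraries. Control IR libraries were the higher ones for Sox7 and Sox17 and the lower ones for Sox18, with no overlap in any of the 3. Their limma adjusted p-values were 0.198, 0.307 and 0.153.

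The ETS genes Erg and Fli1 had log2 fold changes of -0.24 ± 0.21 and -0.265 ± 0.18 (SE; limma adjusted p = 0.555 and 0.413). Fli1 had 227.5, 252 and 319.5 scaled reads in Control IR libraries, against 275, 386 and 301 in Control sham libraries, with overlap. The genes shared with blood cell development, Tal1, Lmo2 and Gata2, had log2 fold changes of 0.098 ± 0.255, 0.325 ± 0.22 and -0.34 ± 0.17. Lmo2 had 104, 107 and 171 scaled reads in Control IR libraries, against 107, 99.6 and 90.5 in Control sham libraries. Gata2 had 258, 214 and 206 scaled reads in Control IR libraries, against 238, 332 and 294 in Control sham libraries. Both overlapped between groups.

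Of the 9 receptors and signalling genes, 1 rose and 1 fell. S1pr1 encodes the receptor for sphingosine 1-phosphate, a lipid of the blood that tightens the vessel barrier. S1pr1 had 1446, 1595 and 1514 scaled reads in Control IR libraries, against 943, 964.5 and 959 in Control sham libraries. The sham libraries lay close together and every IR library above them (log2 fold change 0.67 ± 0.099, SE; limma adjusted p = 0.00139), and the call held in 16 of 16 alternatives.

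Ramp2 encodes the membrane partner that turns the receptor CALCRL into the adrenomedullin receptor. Ramp2 had 187, 172.5 and 219 scaled reads in Control IR libraries, against 359, 257 and 361 in Control sham libraries. Every IR library lay below every sham library (log2 fold change -0.74 ± 0.175, SE; limma adjusted p = 0.0198). Leaving out Control IR replicate 1, Control IR replicate 2, Control sham replicate 1 or Control sham replicate 3 gave adjusted p-values of 0.0616, 0.11, 0.0633 and 0.0816, over a range of 0.00197 to 0.11 across alternatives. Calcrl itself had a log2 fold change of 0.19 ± 0.14 (limma adjusted p = 0.466).

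The ratio of Ramp2 to Calcrl reads within a library was 0.314, 0.29 and 0.395 in Control IR, against 0.627, 0.604 and 0.656 in Control sham. It was 0.43, 0.397 and 0.352 in VE-PTPiKO IR, against 0.689, 0.621 and 0.711 in VE-PTPiKO sham. The IR and sham ratios did not overlap in either genotype. This and 3 other pairs of related genes were picked after their values were seen, so the ratios are a description and were not tested.

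**Figure D2:**
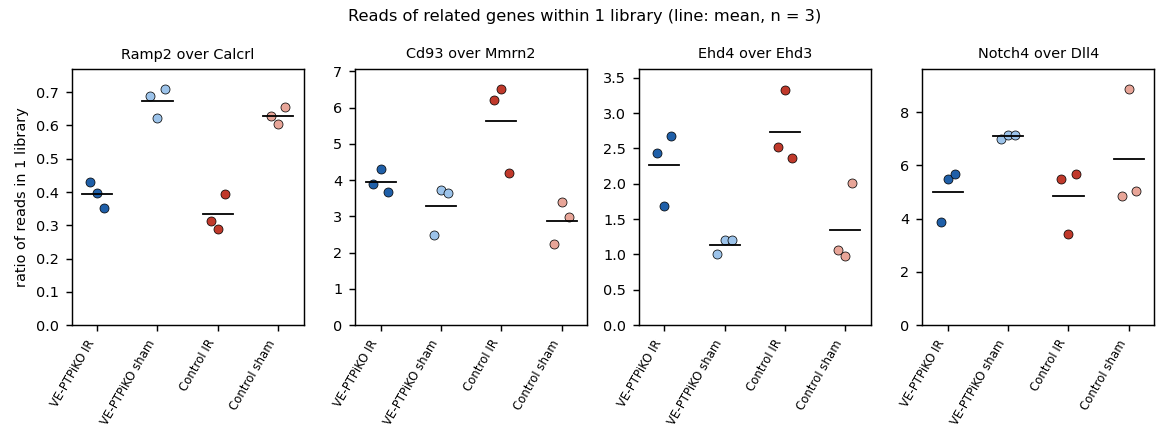
Ratios of reads of related genes within 1 library, each point 1 library and each line the mean of 3. The ratio of Ramp2 to Calcrl lies between 0.29 and 0.43 in IR libraries and between 0.604 and 0.711 in sham libraries. Ehd4 over Ehd3 does not overlap between IR and sham in either genotype. Notch4 over Dll4 overlaps in Control kidneys only, and Cd93 over Mmrn2 in VE-PTPiKO kidneys only.

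Other receptors did not pass. Notch4 had 585, 564.5 and 739 scaled reads in Control IR libraries, against 794, 1334 and 753 in Control sham libraries. Notch4 encodes an endothelial Notch receptor and its groups did not overlap, with Control sham replicate 2 far above the rest (log2 fold change -0.565 ± 0.20, SE; limma adjusted p = 0.108). Eng had 1515, 1759 and 2048 scaled reads in Control IR libraries, against 1958, 2545 and 1811 in Control sham libraries, with overlap, for the co-receptor of TGF-β signalling endoglin. Dll4, a Notch ligand, Nos3, the endothelial nitric oxide synthase, and the adhesion-type receptors Adgrl4 and Adgrf5 had log2 fold changes between -0.22 for Dll4 and 0.071 for Adgrl4. The antisense gene Gm15587 overlaps 25.2% of the exon length of Nos3, and Atg9b, on the opposite strand, also overlaps its span. The strand setting of the counting is not given, so the reads of Nos3 are uncertain.

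Of the 7 remaining genes, 2 rose. Ehd4 encodes an EH-domain ATPase that recycles membrane proteins from endosomes. Whether the Ehd4 reads of these whole kidneys came from endothelial cells was not tested. Ehd4 had 2167, 2562 and 2439 scaled reads in Control IR libraries, against 1215, 978.5 and 1187 in Control sham libraries. The IR libraries were all far above the sham libraries (log2 fold change 1.09 ± 0.12, SE; limma adjusted p = 0.000197), and the call held in 16 of 16 alternatives. Its relative Ehd3, a marker of glomerular endothelium in mouse kidney, had a log2 fold change of 0.0067 ± 0.22 (limma adjusted p = 0.991).

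Rasip1 encodes an effector of the GTPase RAP1 needed for vessel lumens. Rasip1 had 552, 612.5 and 500.1 scaled reads in Control IR libraries, against 309, 413 and 336.5 in Control sham libraries. The groups did not overlap (log2 fold change 0.66 ± 0.145, SE; limma adjusted p = 0.0139). The adjusted p was 0.0958 without Control IR replicate 2 and 0.0528 without Control sham replicate 3, over a range of 0.00158 to 0.0958, and Izumo1 overlaps 19.2% of its exon length on the same strand, so its reads are uncertain.

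Arhgef15, which encodes a guanine nucleotide exchange factor, was the remaining gene of this role with an unadjusted p under 0.05. Arhgef15 had 121, 142 and 175 scaled reads in Control IR libraries, against 212.5, 299.7 and 191 in Control sham libraries. The groups did not overlap and the adjusted threshold was missed (log2 fold change -0.665 ± 0.21, SE; limma adjusted p = 0.0655). The RAS guanyl-releasing protein gene Rasgrp3, Cyyr1 and Myct1 had estimates of -0.062 ± 0.20, -0.19 ± 0.25 and -0.25 ± 0.27. Myct1 had 38.5, 42.7 and 50.1 scaled reads in Control IR libraries, against 64.1, 36.7 and 59.6 in Control sham libraries, and its groups overlapped.

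Counted by overlap alone, 9 of the 38 genes had all Control IR libraries above all Control sham libraries and 4 had all below. Over all genes tested these shares were 15.8% above and 13.7% below, against 23.7% and 10.5% of the 38. Besides the 7 called genes these were Cd34, Sox7 and Sox17 above and Notch4, Sox18 and Arhgef15 below. With 3 libraries against 3, an exact two-sided permutation test of 1 gene cannot give a p below 0.1.

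**Figure D3:**
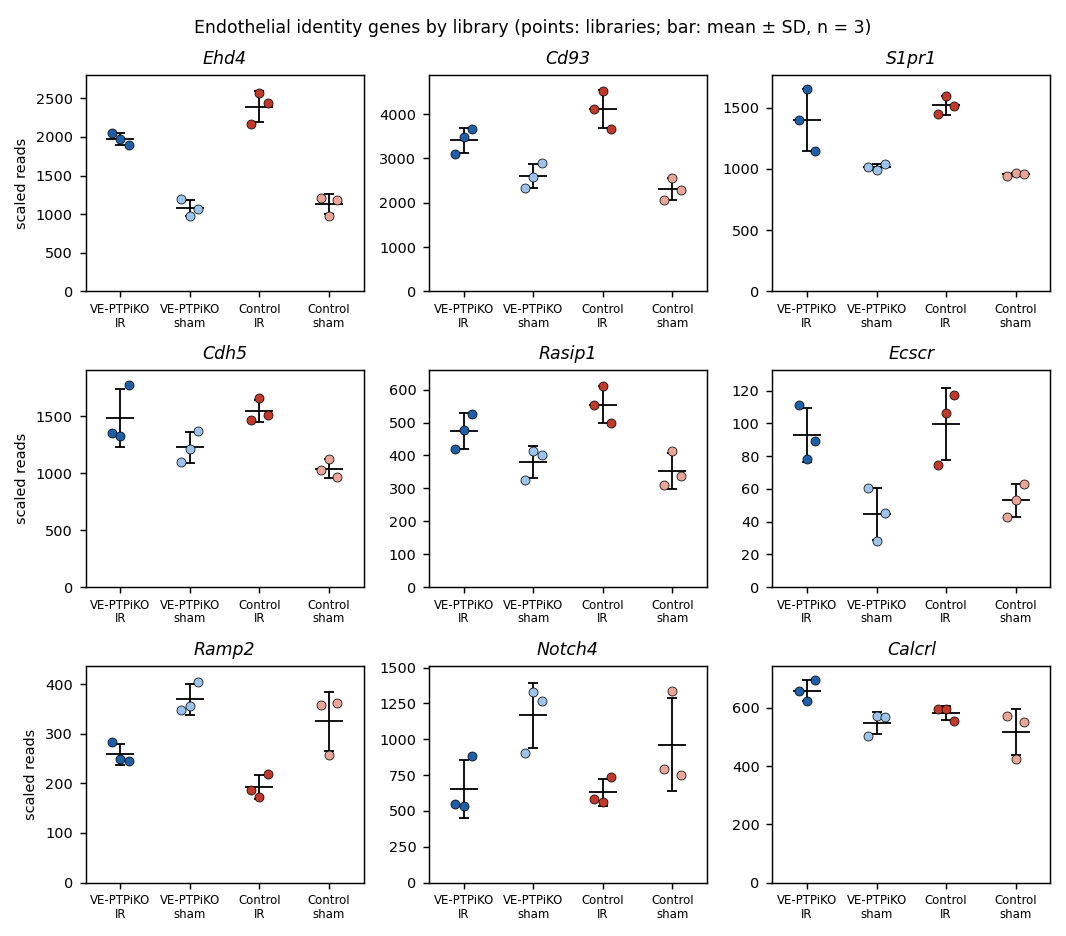
Scaled reads of 9 endothelial identity genes in each of the 12 libraries, with the mean and SD of each group (n = 3). In Control kidneys the IR libraries of Ehd4, Cd93, S1pr1, Cdh5, Rasip1 and Ecscr lie above the sham libraries and those of Ramp2 and Notch4 below, while Calcrl is shown as the partner of Ramp2.

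In VE-PTPiKO kidneys, IR changed 1 of the 38 genes. Ehd4 rose 1.83-fold, and the other 37 genes did not pass the test, limma within the VE-PTPiKO libraries over 16401 genes. The background was 1.92% of genes rising and 0.793% falling, against 2.63% and 0% of the 38, so the members' share is near the background. The median log2 fold change was 0.025 over the 38 genes and -0.0091 over all genes, with 20 estimates above 0 and 18 below. All libraries of one group lay above those of the other in 8 genes upward and 5 downward, 21.1% and 13.2% of the 38, beside 10.6% and 10.1% of all genes.

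Ehd4 had 2045, 1969 and 1895 scaled reads in VE-PTPiKO IR libraries, against 1190, 976 and 1071 in VE-PTPiKO sham libraries. The lowest IR library lay above the highest sham library (log2 fold change 0.87 ± 0.13, SE; limma adjusted p = 0.0098). The adjusted p was 0.0512 without VE-PTPiKO IR replicate 1, 0.0596 without VE-PTPiKO IR replicate 2, 0.0614 without VE-PTPiKO sham replicate 2 and 0.0697 without VE-PTPiKO sham replicate 3, over a range of 5.42e-07 to 0.0697. Without VE-PTPiKO IR replicate 3, the library highest in Malat1, 6 of the 38 genes passed, namely Ehd4, S1pr1, Arhgef15, Eng, Gata2 and Notch4. Of all genes 1925 passed without that library, beside 445 with it, so the rise was not particular to the 38. The count of called genes in VE-PTPiKO kidneys therefore depends on that library.

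In VE-PTPiKO kidneys the other 6 genes called in Control kidneys had estimates of the same sign that did not pass. Cdh5 had 1350, 1323 and 1774 scaled reads in VE-PTPiKO IR libraries, against 1099, 1210 and 1368 in VE-PTPiKO sham libraries. Cd93 had 3094, 3478 and 3656 scaled reads in VE-PTPiKO IR libraries, against 2340, 2581 and 2895 in VE-PTPiKO sham libraries. S1pr1 had 1402, 1648 and 1143 scaled reads in VE-PTPiKO IR libraries, against 1014, 988 and 1043 in VE-PTPiKO sham libraries. Cdh5 overlapped between groups, while Cd93 and S1pr1 did not. Their log2 fold changes were 0.27 ± 0.16, 0.39 ± 0.14 and 0.45 ± 0.16 (SE; limma adjusted p = 0.484, 0.206 and 0.209).

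Ecscr, Rasip1 and Ramp2 were the rest of these 6. Ecscr had 111, 78.3 and 89.4 scaled reads in VE-PTPiKO IR libraries, against 60.4, 28.2 and 45.5 in VE-PTPiKO sham libraries. Rasip1 had 419, 479 and 525 scaled reads in VE-PTPiKO IR libraries, against 324, 415 and 402 in VE-PTPiKO sham libraries. Ramp2 had 283, 248 and 245 scaled reads in VE-PTPiKO IR libraries, against 347.5, 355 and 405 in VE-PTPiKO sham libraries. None of the 3 overlapped between groups. Their log2 fold changes were 1.09 ± 0.31, 0.32 ± 0.16 and -0.51 ± 0.15 (SE; limma adjusted p = 0.12, 0.399 and 0.141). Ecscr had the highest estimate of all 38 genes in VE-PTPiKO kidneys, on 28.2 to 111 scaled reads.

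The lowest 3 estimates belonged to Notch4, Arhgef15 and Gata2. Notch4 had 545, 531 and 883 scaled reads in VE-PTPiKO IR libraries, against 905, 1327 and 1268 in VE-PTPiKO sham libraries. Arhgef15 had 149.6, 81.6 and 193 scaled reads in VE-PTPiKO IR libraries, against 208, 232 and 251.5 in VE-PTPiKO sham libraries. Gata2 had 221, 193 and 295 scaled reads in VE-PTPiKO IR libraries, against 330.2, 382 and 396 in VE-PTPiKO sham libraries. No group pair overlapped, though VE-PTPiKO IR replicate 3 stood nearest to the sham libraries in all 3 genes. Their log2 fold changes were -0.855 ± 0.23, -0.78 ± 0.295 and -0.66 ± 0.19 (SE; limma adjusted p = 0.101, 0.244 and 0.13). Without VE-PTPiKO IR replicate 3 all 3 passed, and over the alternatives the adjusted p ran from 0.00556 to 0.394 for Notch4, 0.0313 to 0.62 for Arhgef15 and 0.0134 to 0.456 for Gata2.

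By role, the 4 junction genes had estimates of 0.23 to 0.27, none past the threshold. The 10 glycoproteins ran from -0.199 for Robo4 to 1.09 for Ecscr. Of the 8 transcription factors 7 had estimates below 0, from -0.66 for Gata2, and Sox7 had 0.064. Sox18 had 156, 101 and 114 scaled reads in VE-PTPiKO IR libraries, against 189, 164.5 and 190.5 in VE-PTPiKO sham libraries, without overlap (log2 fold change -0.565 ± 0.21, SE; limma adjusted p = 0.239). Eng had 1450, 1657 and 2454 scaled reads in VE-PTPiKO IR libraries, against 2255, 2493 and 2579 in VE-PTPiKO sham libraries. Eng overlapped only through VE-PTPiKO IR replicate 3, with a log2 fold change of -0.43 ± 0.19 (limma adjusted p = 0.336).

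Set side by side, 27 of the 38 genes (71.1%) had the same sign of response to IR in both genotypes, 14 upward and 13 downward. Over the 16021 genes tested in both, the share was 73.5%, so the 38 genes were close to the background here too. The estimate was the larger in size in Control kidneys in 20 of the 38 genes.

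**Figure D4:**
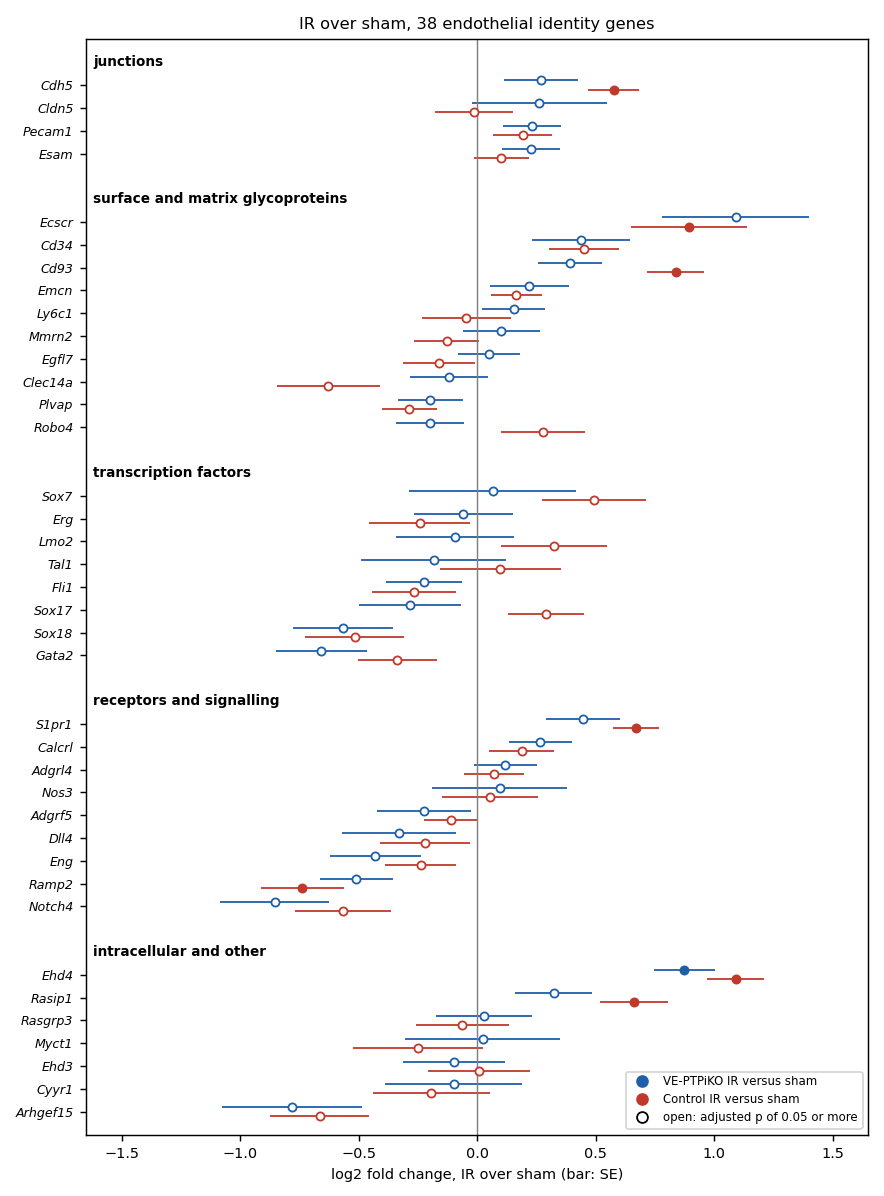
Log2 fold changes of IR over sham with SE for the 38 genes, grouped by role, in VE-PTPiKO kidneys (blue) and Control kidneys (red), with filled points where the limma adjusted p was under 0.05. In VE-PTPiKO kidneys 1 point is filled and in Control kidneys 7, and most estimates lie within 0.5 of 0.

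The authors' deposited tables gave more calls on the same libraries. In the authors' deposited table for Control kidneys 7 of the 38 genes were higher and 4 lower after IR at an adjusted p under 0.05, adding Cd34, Clec14a, Notch4 and Arhgef15 to the 7 genes above. Over the 13664 genes with an adjusted p in the authors' deposited table for Control kidneys these shares were 12.5% higher and 8.6% lower. In the authors' deposited table for VE-PTPiKO kidneys 4 were higher (Ehd4, Cd93, Ecscr and S1pr1) and 3 lower (Notch4, Ramp2 and Gata2), beside 6.42% and 4.88% of 13732 genes. Of the 38 genes, edgeR run here on the recovered reads called 1 in VE-PTPiKO kidneys, beside 2.78% of all genes, and 7 in Control kidneys, beside 11.5%. DESeq2 called 4 in VE-PTPiKO kidneys, beside 7.15% of the genes given an adjusted p, and 9 in Control kidneys, beside 15.4%.

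Without IR, none of the 38 genes passed the test between VE-PTPiKO and Control kidneys. The share called among all 16339 genes was 0% by limma on all 12 libraries, with 267 genes at an unadjusted p under 0.05, none of them among the 38, and edgeR called 0 genes and DESeq2 1. The median log2 fold change, VE-PTPiKO over Control, was 0.085 over the 38 genes and 0.0092 over all genes, with 26 of the 38 above 0. By overlap, 3 of the 38 were higher in every VE-PTPiKO sham library and 0 lower, beside 2.5% and 2.36% of all genes.

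Sox17 had 232, 241 and 212 scaled reads in VE-PTPiKO sham libraries, against 200.1, 200.1 and 156.5 in Control sham libraries. Sox18 had 189, 164.5 and 190.5 scaled reads in VE-PTPiKO sham libraries, against 155, 149 and 162 in Control sham libraries. S1pr1 had 1014, 988 and 1043 scaled reads in VE-PTPiKO sham libraries, against 943, 964.5 and 959 in Control sham libraries. These were the 3 genes without overlap, all higher in VE-PTPiKO sham libraries by small margins. Their log2 fold changes were 0.30 ± 0.19, 0.22 ± 0.21 and 0.087 ± 0.12 (SE; limma adjusted p = 1 in each), and an antisense gene overlaps 16.9% of the exon length of Sox17.

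The highest estimates in sham were those of Gata2, Notch4 and Sox17 and the lowest those of Ecscr, Myct1 and Sox7. Gata2 had 330.2, 382 and 396 scaled reads in VE-PTPiKO sham libraries, against 238, 332 and 294 in Control sham libraries. Notch4 had 905, 1327 and 1268 scaled reads in VE-PTPiKO sham libraries, against 794, 1334 and 753 in Control sham libraries. Both overlapped by 1 library or more (log2 fold change 0.37 ± 0.18 and 0.31 ± 0.245, SE). Ecscr had 60.4, 28.2 and 45.5 scaled reads in VE-PTPiKO sham libraries, against 42.7, 53.3 and 62.8 in Control sham libraries. Myct1 had 55.4, 28.2 and 49.7 scaled reads in VE-PTPiKO sham libraries, against 64.1, 36.7 and 59.6 in Control sham libraries. Sox7 had 43.0, 48.9 and 79.7 scaled reads in VE-PTPiKO sham libraries, against 54.0, 76.9 and 66.0 in Control sham libraries. These overlapped as well, with log2 fold changes of -0.29 ± 0.29, -0.28 ± 0.30 and -0.23 ± 0.30 (limma adjusted p = 1 in each of the 5 genes).

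After IR, too, none of the 38 genes passed the test between VE-PTPiKO and Control kidneys. The share called among all genes was 0% by limma, with 709 of 16339 genes and 3 of the 38 (Ramp2, Ehd4 and Sox7) at an unadjusted p under 0.05, and edgeR called 0 genes and DESeq2 1, which was not among the 38. The median log2 fold change was 0.042 over the 38 genes and -0.015 over all genes. By overlap 3 of the 38 were higher in VE-PTPiKO (Ramp2, Calcrl and Ly6c1) and 3 lower (Ehd4, Cd93 and Robo4), beside 3.97% and 5.19% of all genes.

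Ramp2 had 283, 248 and 245 scaled reads in VE-PTPiKO IR libraries, against 187, 172.5 and 219 in Control IR libraries. Ehd4 had 2045, 1969 and 1895 scaled reads in VE-PTPiKO IR libraries, against 2167, 2562 and 2439 in Control IR libraries. Sox7 had 44.7, 46.8 and 91.5 scaled reads in VE-PTPiKO IR libraries, against 88.6, 107 and 81.3 in Control IR libraries. Ramp2 was higher in all 3 VE-PTPiKO IR libraries and Ehd4 lower in all 3, while Sox7 was low in VE-PTPiKO IR replicates 1 and 2 and overlapped through replicate 3. Their log2 fold changes were 0.425 ± 0.16, -0.275 ± 0.12 and -0.66 ± 0.30 (SE; limma adjusted p = 1 in each).

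Clec14a had 278, 275 and 220.1 scaled reads in VE-PTPiKO IR libraries, against 154, 169.8 and 279 in Control IR libraries. Egfl7 had 1175, 1237 and 1378 scaled reads in VE-PTPiKO IR libraries, against 982.5, 902 and 1274 in Control IR libraries. Lmo2 had 85.2, 111 and 85.0 scaled reads in VE-PTPiKO IR libraries, against 104, 107 and 171 in Control IR libraries. These, with Ramp2, Sox7 and Ehd4, had the highest and lowest estimates, and all 3 overlapped between groups (log2 fold change 0.40 ± 0.20, 0.275 ± 0.145 and -0.41 ± 0.24, SE; limma adjusted p = 1 in each). Cd93 stood at 3094, 3478 and 3656 scaled reads in VE-PTPiKO IR libraries, against 4124, 4528 and 3671 in Control IR libraries, and the highest VE-PTPiKO library lay just under the lowest Control library.

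**Figure D5:**
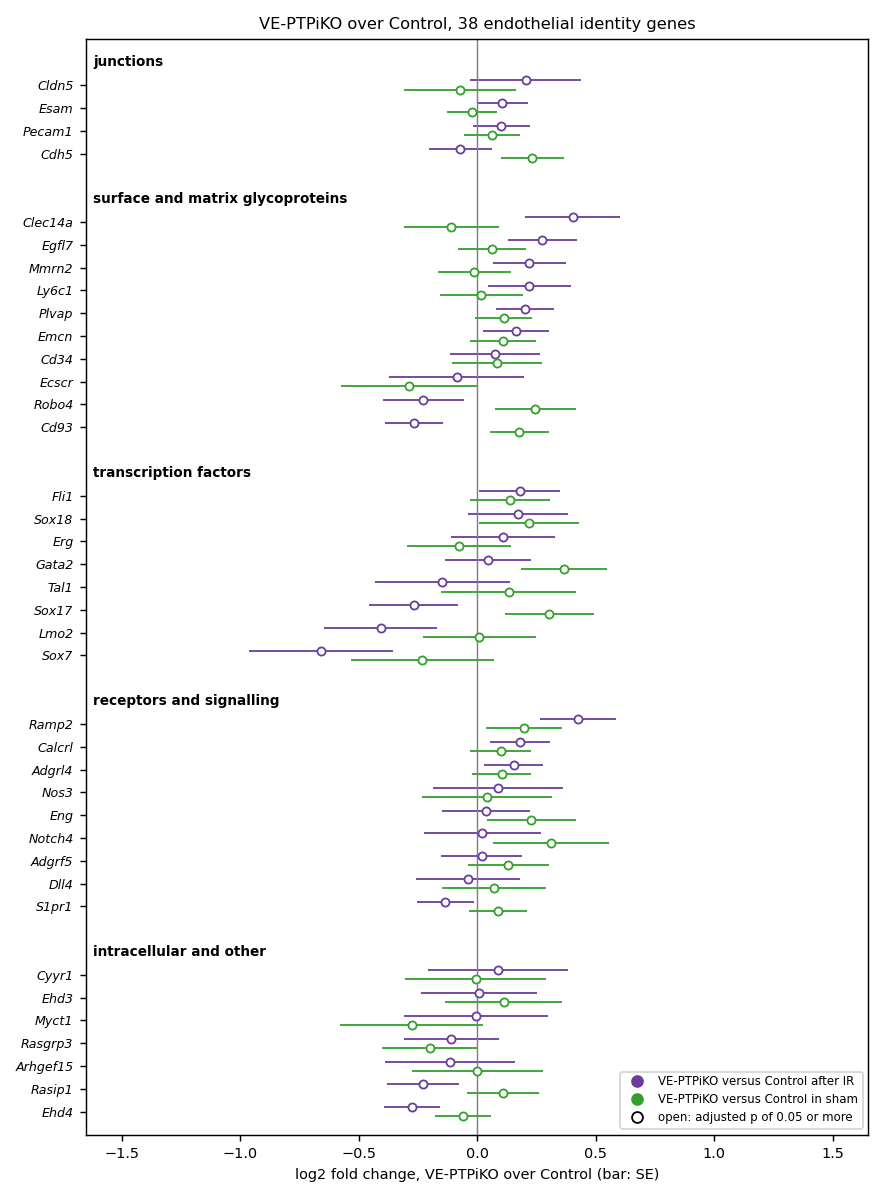
Log2 fold changes of VE-PTPiKO over Control with SE for the 38 genes, after IR (purple) and in sham (green), grouped by role. All points are open, since no adjusted p was under 0.05, and the estimates run from -0.66 for Sox7 to 0.425 for Ramp2.

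Whether the response to IR itself differed between genotypes was tested by the interaction of genotype and injury in all 12 libraries. The share called among all genes was 0%, and 0 of the 38 genes passed. At an unadjusted p under 0.05 there were 432 of 16339 genes and 2 of the 38, Cd93 and Sox17, and edgeR and DESeq2 each called 0 genes. The interaction is the log2 response in VE-PTPiKO minus that in Control. It was -0.44 ± 0.175 for Cd93, -0.57 ± 0.265 for Sox17 and -0.47 ± 0.24 for Robo4, the 3 lowest with Lmo2 (-0.42 ± 0.34) and Sox7 (-0.43 ± 0.43) near them, and 0.51 ± 0.29 for Clec14a, 0.28 ± 0.33 for Cldn5 and 0.27 ± 0.43 for Myct1, the 3 highest (SE; limma adjusted p = 0.999 in each). A call in Control and none in VE-PTPiKO, as for Cdh5, S1pr1, Rasip1, Ecscr and Ramp2, is therefore not shown to be a difference between genotypes, and their interactions were -0.305 ± 0.19, -0.22 ± 0.17, -0.34 ± 0.21, 0.20 ± 0.40 and 0.23 ± 0.23.

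The VE-PTPiKO libraries of genes named above only for Control kidneys or for the other contrasts were as follows. Robo4 had 528, 603 and 639 scaled reads in VE-PTPiKO IR libraries, against 627, 755 and 651 in VE-PTPiKO sham libraries. Sox17 had 147.5, 250.2 and 177 scaled reads in VE-PTPiKO IR libraries, against 232, 241 and 212 in VE-PTPiKO sham libraries. Cldn5 had 165, 218 and 112 scaled reads in VE-PTPiKO IR libraries, against 146, 99.7 and 161.5 in VE-PTPiKO sham libraries. All 3 overlapped between groups. Clec14a had 278, 275 and 220.1 scaled reads in VE-PTPiKO IR libraries, against 285.5, 289 and 263 in VE-PTPiKO sham libraries. Lmo2 had 85.2, 111 and 85.0 scaled reads in VE-PTPiKO IR libraries, against 126, 75.2 and 103.5 in VE-PTPiKO sham libraries. Sox7 had 44.7, 46.8 and 91.5 scaled reads in VE-PTPiKO IR libraries, against 43.0, 48.9 and 79.7 in VE-PTPiKO sham libraries. These overlapped as well, and VE-PTPiKO IR replicate 3 and VE-PTPiKO sham replicate 3 were the high libraries for Sox7. Plvap had 3714.7, 3905.7 and 3361.0 scaled reads in VE-PTPiKO IR libraries, against 4086.0, 3825.8 and 4727.3 in VE-PTPiKO sham libraries. Fli1 had 270.1, 352.5 and 279 scaled reads in VE-PTPiKO IR libraries, against 340.1, 344 and 365 in VE-PTPiKO sham libraries. Egfl7 had 1175, 1237 and 1378 scaled reads in VE-PTPiKO IR libraries, against 1223, 1305 and 1135 in VE-PTPiKO sham libraries. The groups of Plvap, Fli1 and Egfl7 overlapped. Esam had 1154, 1108 and 1054 scaled reads in VE-PTPiKO IR libraries, against 912, 942 and 980.2 in VE-PTPiKO sham libraries. Myct1 had 56.1, 37.0 and 39.2 scaled reads in VE-PTPiKO IR libraries, against 55.4, 28.2 and 49.7 in VE-PTPiKO sham libraries. The groups of Esam did not overlap, with every IR library the higher (log2 fold change 0.23 ± 0.12, SE; limma adjusted p = 0.43), while those of Myct1 did.

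Other endothelial genes were taken from lists of cell type markers. Of 18 further pan-endothelial genes, 2 rose after IR in Control kidneys and 1 fell. Klf4, a flow-responsive transcription factor, rose 2.63-fold (log2 fold change 1.40 ± 0.175, SE; limma adjusted p = 0.000474) and Mcam, the adhesion molecule CD146, 2.22-fold (1.15 ± 0.13; 0.000238), while Ptprb fell, to a level 1.54-fold lower (-0.62 ± 0.15; 0.0246). The call of Ptprb held in 12 of 16 alternatives: its limma adjusted p was 0.0902 without Control IR replicate 1, 0.121 without Control IR replicate 2, 0.057 without Control sham replicate 3 and 0.0722 in 1 fit of all 12 libraries, over a range of 0.00242 to 0.121. The list's median log2 fold change was -0.105. Of 5 venous genes tested Vcam1, a leukocyte adhesion molecule, rose 2.41-fold, of 6 peritubular and medullary genes Slc14a1, a urea transporter, rose 1.71-fold, and of 5 lymphatic genes tested Prox1 fell, to a level 2.12-fold lower. Prox1 and Slc14a1 are also expressed outside vessels. None of 9 arterial and 6 glomerular endothelial genes passed in either direction.

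In VE-PTPiKO kidneys none of these endothelial lists had a gene past the limma threshold. The estimates were 0.857 ± 0.225 for Klf4, 0.641 ± 0.187 for Mcam, 0.463 ± 0.16 for Vcam1 and -1.38 ± 0.32 for Prox1 on the log2 scale (SE; limma adjusted p = 0.0956, 0.128, 0.203 and 0.0597). The median log2 fold change was -0.181 over the 18 pan-endothelial genes and -0.451 over the 6 glomerular genes, of which 3 had all IR libraries below all sham libraries, beside 10.1% of all genes.

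Some markers of blood cells passed the test for a rise with IR in Control kidneys, 3 of 5 of red cells, 2 of 4 of platelets and 1 of 8 of leukocytes. Blood cells also express some of the 38 genes, among them Cd34, Fli1, Tal1, Lmo2, Gata2, Pecam1 and Eng, and this list is not complete. Red cell markers summed to 314, 574 and 340 CPM in Control IR, against 91.3, 72.7 and 176 in Control sham, and to 424, 529 and 126 in VE-PTPiKO IR, against 142, 82.7 and 81.4 in VE-PTPiKO sham. Of these 5 genes 3 rose in Control kidneys and 0 in VE-PTPiKO kidneys. Platelet markers summed to 9.97 to 11 CPM in Control IR, against 5.37 to 7.18 in Control sham, with Pf4 and Ppbp risen among 4 genes tested, and to 8.31 to 9.79 in VE-PTPiKO IR, against 5.66 to 7.82 in VE-PTPiKO sham. Leukocyte markers summed to 108 to 120 CPM in Control IR, against 81.3 to 101 in Control sham, with Cd68 risen among 8 genes, and to 92.8 to 127 in VE-PTPiKO IR, against 86.3 to 97.3 in VE-PTPiKO sham, where Cd68 rose too. The part of blood cells in the values of the 38 genes was not tested. Mural cell and fibroblast markers summed to 396 to 691 CPM in Control IR, against 392.2 to 629 in Control sham, and to 471 to 823 in VE-PTPiKO IR, against 593.5 to 648 in VE-PTPiKO sham, and 0 of 10 passed the limma test in either genotype.

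Libraries of 1 group differed in how the 38 genes stood together. In Control IR, replicate 1 was the lowest of the 3 for 27 of the 38 genes and replicate 3 the highest for 23, beside 37.7% and 34.7% of all genes, and their median deviations from the group mean were -0.118 and 0.131 on the log2 scale, beside -0.0097 and -0.0033 over all genes. The title code of Control IR replicate 1 also lies far from the codes of the other libraries, and what these codes mean is not given. In VE-PTPiKO sham, replicate 3 was above the group mean for 30 of the 38 genes, with a median deviation of 0.084. Control sham and VE-PTPiKO IR libraries had median deviations between -0.042 and 0.020.

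The coefficient of variation within a group, averaged over the 4 groups, was lowest for Esam at 6.23%, S1pr1 at 6.72% and Pecam1 at 7.94%, and highest for Cyyr1 at 28.7%, Sox7 at 27.4% and Notch4 at 24.8%. In the 3 libraries highest in Malat1, 10 of the 38 genes were above their group mean in all 3 and 11 below, 26.3% and 28.9%, beside 29.2% and 27% of all genes. The genes above, led by Cyyr1 and Notch4, had a median exon length of 4294.5 bases (range 2861 to 8864). Those below, led by Myct1 and Cldn5, had a median of 2732 bases (1248 to 7288), and the 17 mixed genes one of 4123 bases (1636 to 6638). These ranges overlap widely, lengths were not compared over all genes, and no difference in length was tested. Whether RNA quality has a part in the values of these libraries was not tested.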

How the data were processed

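RNA of 12 whole mouse kidney samples was measured by RNA-seq. FastQC, STAR, HTSeq and DESeq2 on mm10 are named, without versions, per the submitters' processing notes. The library columns the authors deposited hold a scaled signal, in which the reads of each gene were divided by a library's size factor, set separately for each table. Group columns hold deposited means of this signal. The deposited log2 fold changes, the authors' Wald score and the deposited p-values are the authors' own comparison, per the file headers. Undoing that division yielded whole reads at 100.0% of nonzero values (tolerance 0.02), on which edgeR called 1867 genes and DESeq2 2205 in Control kidneys after IR and 456 and 1013 in VE-PTPiKO kidneys. A joint factor per library was computed by the median of ratios over 14828 genes. Of 23493 lines per table, 182 identifiers were repeated with identical values, leaving 23286 genes. Table starts are counted from 0.

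IR was compared with sham within each table's deposited values. Genotypes and the interaction were fitted over all 12 libraries on jointly scaled reads. Each test was limma 3.58.1 on log2(value + 1), with a mean-dependent prior variance, a minimum mean value of 1, Benjamini-Hochberg adjustment and a threshold of 0.05. Fold changes are on this scale and understate those of low genes. The tests were checked on simulated counts. Alternatives were TMM, no filter, a mean of 10, pseudocounts of 0.5 and 5, edgeR 4.0.16, DESeq2 1.42.0, a replicate block, each library left out, the 3 libraries highest in Malat1 left out, and 1 fit of all 12 libraries. For Control IR versus sham, the fit without the libraries highest in Malat1 is the fit without Control sham replicate 2. The counts of alternatives there include it under both names. RPKM used GENCODE exons of mm10.

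The members, the lists and these tests were chosen with earlier results of these data known. By rule, values of every library are given for members past the threshold in any comparison, the most abundant member of each role in Control sham, the 3 highest and 3 lowest estimates per comparison, and Ptprb. Of other lists at most 4 called genes are named. Cd34, Sox18, Calcrl and the ratios were added after their values were seen.

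Replicate numbers come from the titles, and no label ties them to mice. Deviations of same-numbered libraries correlated at 0.318, 0.37 and 0.144 between VE-PTPiKO sham and Control sham, and 5 of 6 libraries correlated best with their own number. The numbers may thus pair those groups. The value 0.37 belongs to replicate 2 of both groups, which are both among the libraries highest in Malat1. What these correlations come from was not tested. The fit with the replicate block called 0 genes between these groups too. In the other group pairs at least 1 correlation was under 0.1.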

Additional observations from a re-analysis of the deposited data

How the results depend on the processing

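The 115 fold changes of 23 genes (22 of the 38 and Ptprb, in 5 comparisons) were followed over the alternatives: 2065 values kept their direction and side of the threshold, 22 lost their call, 24 gained one and 74 changed sign. Of those 74, 0 were past the threshold before or after the change of sign. Of the counts of called genes, 165 stayed within 1.5 times the reported count and 25 did not. For Control IR versus sham, leaving out 1 library at a time gave 3 to 8 called genes of the 38 and 862 to 2010 of all genes, with the low end of both without Control IR replicate 2. For VE-PTPiKO IR versus sham the same gave 0 to 6 of the 38 and 126 to 1925 of all genes, with the high end of both without VE-PTPiKO IR replicate 3. Without VE-PTPiKO IR replicate 1, VE-PTPiKO IR replicate 2, VE-PTPiKO sham replicate 2 or VE-PTPiKO sham replicate 3 none of the 38 was called, with 194, 168, 170 and 126 of all genes. In VE-PTPiKO kidneys the 38 genes had 4 calls with DESeq2, 4 with the libraries highest in Malat1 left out and 4 in 1 fit of all 12 libraries, and all genes had 1013, 853 and 1019. The cause of these differences was not tested. The replicate block gave 2 of the 38 (Ehd4 and Notch4) and 604 of all genes in VE-PTPiKO kidneys and changed no other count of the 38. The same-numbered libraries correlated at 0.463, -0.287 and 0.121 there, and 3 of 6 libraries correlated best with their own number, so no pairing is shown. For VE-PTPiKO versus Control in sham, all genes had 1 call with DESeq2, 1 with the libraries highest in Malat1 left out and 0 to 1 with a library left out (1 without VE-PTPiKO sham replicate 3). After IR the counts were 1 with DESeq2 and 0 to 1 with a library left out, and for the interaction 0 to 1 (1 without Control sham replicate 3 in both). None of these was among the 38. Depth limits Ecscr, Myct1, Tal1 and Sox7, which had at most 117 scaled reads in any library, and with 3 libraries per group the SE of the 38 genes reached 0.429, for the interaction of Myct1.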
